A study of Mus musculus with 40 samples.

Results

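The 6 genes described here encode the receptors through which mouse myeloid cells bind the constant (Fc) part of immunoglobulin. They were taken by name from 54513 rows of the 3 deposited tables, and all 6 were found in each. Fcgr1, Fcgr3 and Fcgr4 encode the activating receptors for IgG, Fcgr2b encodes the inhibitory one, Fcer1g encodes the signalling chain that the activating receptors share, and Fcgrt encodes the neonatal Fc receptor.

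The measurements were bulk RNA-seq of cells sorted by FACS for the myeloid surface protein CD11b from naive or glioma-bearing brain hemispheres of male mice. At 21 days post-implantation (DPI), each sample was a pool of 2 animals. C57BL/6 mice were either naive or bore GL261 tumors, a murine glioma line expressing tdTomato and luciferase, and received water (vehicle), the peptide 7aaRGD, which carries the RGD integrin-binding motif, or the control peptide 7aaRAE, which lacks it (n = 3 in each group). Athymic nude mice, which lack mature T cells, bore U87-MG tumors, a human glioblastoma line expressing RFP, and received vehicle, 7aaRGD or 7aaRAE (n = 3 in each group). At 28 DPI, each sample was 1 tumor-bearing mouse given vehicle (n = 4), 7aaRGD (n = 4), anti-PD-1 antibody with vehicle (n = 3) or 7aaRGD with anti-PD-1 (n = 3). In both models the peptides were infused into the tumor by osmotic pump. According to the study's methods the mice without anti-PD-1 were injected with a control IgG, so that the groups differed in the antibody given, and not in having received one. The sample labels place the 28 DPI mice among nude mice, whereas the methods describe C57BL/6 mice with GL261 tumors. H2-Ea-ps, the row of the MHC class II gene that C57BL/6 mice carry in a non-functional form, was at -0.02 to 0.10 RPKM in the 28 DPI samples and at -0.01 to 0.06 RPKM in the C57BL/6 samples, against 22.5 to 374 RPKM in the nude mice. The 28 DPI samples are therefore named here as GL261 samples.

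Activating Fc receptors pair with the FcR gamma chain, whose tyrosine motif recruits the kinase Syk once IgG bound to a target cross-links the receptors. The response that follows includes phagocytosis, release of mediators and antigen presentation. Fcgr2b carries an inhibitory tyrosine motif that recruits the phosphatase SHIP1 (Inpp5d) and counteracts this signal, so the level of the activating receptors relative to Fcgr2b sets a threshold for the response to immune complexes. Fcgr1 binds monomeric IgG with high affinity, whereas Fcgr2b, Fcgr3 and Fcgr4 bind mainly complexed IgG. Interferon-gamma is a known inducer of Fcgr1 and Fcgr4.

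Levels are given as RPKM, which is read number scaled to transcript length and library size, after removal of a constant of 2 that the tables had added to each value. RPKM is scaled per length, so a ratio between genes depends on the length taken for each. The annotated exons cover 5790 bases for Fcgr2b, 2589 for Fcgr1, 1736 for Fcgr3 and 1256 for Fcgr4. Whether the cells use the whole of these lengths was not tested. Ratios and shares of different genes are therefore better compared between groups than read as absolute amounts. The 3 tables were normalised separately, and no test was made across them. Read depth is unknown because no counts were used. Between 9323 and 9815 protein-coding genes reached 1 RPKM in a sample. Itgam, which encodes CD11b, lay at 51.2 to 195 RPKM in all samples. The T cell markers summed to at most 12.2 RPKM in a sample. The 8 B cell and plasma cell markers summed to 20.8 to 233 RPKM, in which the immunoglobulin heavy chain gene Ighm stood at 14.9 to 214 RPKM, while the B cell markers Ms4a1 and Pax5 were under 0.5 RPKM in every sample. The neutrophil markers summed to 118 to 500.4 RPKM across all samples. Fold changes come from limma on log2(RPKM + 1), with Benjamini-Hochberg adjustment over all protein-coding genes whose mean reached 1 RPKM, and a gene was called at an adjusted p under 0.05.

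Fcgr2b, Fcgr4 and Fcgr3 lie together on chromosome 1 of mm10, at chr1:170958617-170976547, chr1:171018920-171029761 and chr1:171051174-171064935. Fcer1g lies nearby at chr1:171229572-171234365, whereas Fcgr1 is at chr3:96282909-96293969 and Fcgrt at chr7:45092990-45103851. The promoters of the 4 IgG receptors are shown because these genes moved differently from one another. Each sequence is the RefSeq promoter of GRCm38.p6, 5′ to 3′ on the gene's own strand, from 250 bases before the start to 50 bases after it. Capitals mark matches to 3 motifs searched on both strands, which are the interferon-gamma activated site, or GAS element (TTCNNNGAA), the core of the PU.1 site of myeloid promoters (GAGGAA) and an IRF-type repeat (GAAA, any 2 bases, GAAA).
Fcgr1 (chr3:96293920-96294219, minus strand): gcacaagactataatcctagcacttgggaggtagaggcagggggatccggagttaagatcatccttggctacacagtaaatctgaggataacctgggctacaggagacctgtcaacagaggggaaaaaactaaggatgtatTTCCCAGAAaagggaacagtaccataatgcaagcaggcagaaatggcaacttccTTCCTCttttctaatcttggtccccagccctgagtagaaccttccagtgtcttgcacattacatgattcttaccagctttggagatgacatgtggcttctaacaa
Fcgr3 (chr1:171059354-171059653, minus strand): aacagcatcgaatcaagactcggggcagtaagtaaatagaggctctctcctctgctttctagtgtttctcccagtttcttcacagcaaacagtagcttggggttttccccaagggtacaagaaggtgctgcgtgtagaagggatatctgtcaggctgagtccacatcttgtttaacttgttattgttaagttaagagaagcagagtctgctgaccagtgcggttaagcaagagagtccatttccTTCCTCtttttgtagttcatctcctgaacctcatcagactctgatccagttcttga
Fcgr4 (chr1:171018676-171018975, plus strand): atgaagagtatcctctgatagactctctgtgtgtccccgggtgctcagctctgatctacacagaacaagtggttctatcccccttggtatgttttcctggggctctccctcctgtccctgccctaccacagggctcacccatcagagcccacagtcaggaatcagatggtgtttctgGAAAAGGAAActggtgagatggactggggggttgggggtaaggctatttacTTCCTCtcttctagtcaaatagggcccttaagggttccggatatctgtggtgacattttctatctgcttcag
Fcgr2b (chr1:170976022-170976321, minus strand): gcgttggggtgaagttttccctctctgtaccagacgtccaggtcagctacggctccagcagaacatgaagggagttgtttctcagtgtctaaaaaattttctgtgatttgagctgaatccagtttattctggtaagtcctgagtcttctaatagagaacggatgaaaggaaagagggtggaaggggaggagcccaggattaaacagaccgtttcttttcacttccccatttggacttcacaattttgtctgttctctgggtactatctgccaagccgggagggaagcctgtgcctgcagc
Of these 4 promoters, that of Fcgr1 held the GAS element, which begins at base -109 and which 8.30% of the 32851 RefSeq promoters of this length also held. A PU.1 core was present before the start of Fcgr1 (from base -55), Fcgr4 (from base -22) and Fcgr3 (from base -6), and 28.3% of all promoters held it. The IRF-type repeat was present in the Fcgr4 promoter from base -73 and in 3.44% of all promoters. The Fcgr2b window held none of these 3 motifs, and neither did the windows of Fcer1g and Fcgrt.

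The first comparison describes the receptors in normal brain and in the tumor. In naive C57BL/6 brain, CD11b+ cells had high Fcgr3 and Fcgr1 and very little Fcgr4. In GL261 tumors at 21 DPI, Fcgr4 was 26.1-fold higher, Fcgr2b 3.33-fold higher, the signalling chain Fcer1g 1.85-fold higher and Fcgr1 1.22-fold higher. The summed RPKM of the activating receptors relative to Fcgr2b was lower, whereas Fcgr4 alone rose relative to Fcgr2b. This contrast was wide across the transcriptome, with 82.9% of the 9722 genes tested called, so the 4 of 6 members called are not a larger share than the background.

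Fcgr4 encodes the activating receptor for IgG2a and IgG2b. It was at 12.8, 14.8 and 13.7 RPKM in the naive samples and at 347, 386 and 420 RPKM in the vehicle-treated tumors. The groups did not overlap, as was so for 85.4% of the genes tested, and the log2 fold change was 4.70 ± 0.08 (SE; adjusted p = 5.836e-09, limma). Among 21826 protein-coding genes ranked by mean level, Fcgr4 was at position 2999 in naive brain and at position 109 in the tumors.

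Fcgr2b, the inhibitory receptor, was at 71.8, 71.4 and 73.2 RPKM in the naive samples and at 289, 273 and 181 RPKM in the vehicle-treated tumors. All tumor samples were above all naive samples, although vehicle sample 3 was well below the other two (log2 fold change 1.74 ± 0.16, adjusted p = 1.632e-05, limma). Fcgr1, the high-affinity receptor, moved from 235, 245 and 237 RPKM to 284, 269 and 324 RPKM (log2 fold change 0.29 ± 0.08, adjusted p = 0.008434, limma). Fcer1g, the shared chain, moved from 544, 516 and 490 RPKM to 960, 887 and 1032 RPKM (log2 fold change 0.89 ± 0.08, adjusted p = 1.207e-05, limma).

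Fcgr3, the activating receptor with the highest level in naive cells, did not rise with the others. It was at 752, 767 and 777 RPKM in the naive samples and at 718, 710.5 and 615.5 RPKM in the tumors, which was lower in every sample but not called (log2 fold change -0.17, 95% interval -0.35 to 0.01, adjusted p = 0.06729, limma). Its direction depended on the scaling, since the median gene of this contrast lay at -0.14 on the log2 scale, and Fcgr3 was at -0.01 with TMM factors and at 0.00 with median-of-ratios factors, while the 4 called members stayed called and higher under both. The neonatal receptor Fcgrt, which recycles IgG inside the cell, was at 65.6, 68.9 and 65.0 RPKM in the naive samples and at 63.9, 49.7 and 30.5 RPKM in the tumors. Its log2 fold change of -0.52 was not called (95% interval -1.05 to -0.00, adjusted p = 0.0598, limma), and the tumor samples spread over more than the distance between the groups. Without vehicle sample 1 Fcgr3 and Fcgrt were both called lower (adjusted p = 0.0373 and 0.0041, limma), and without vehicle sample 2 Fcgr3 was (adjusted p = 0.0455, limma).

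**Figure D1:**
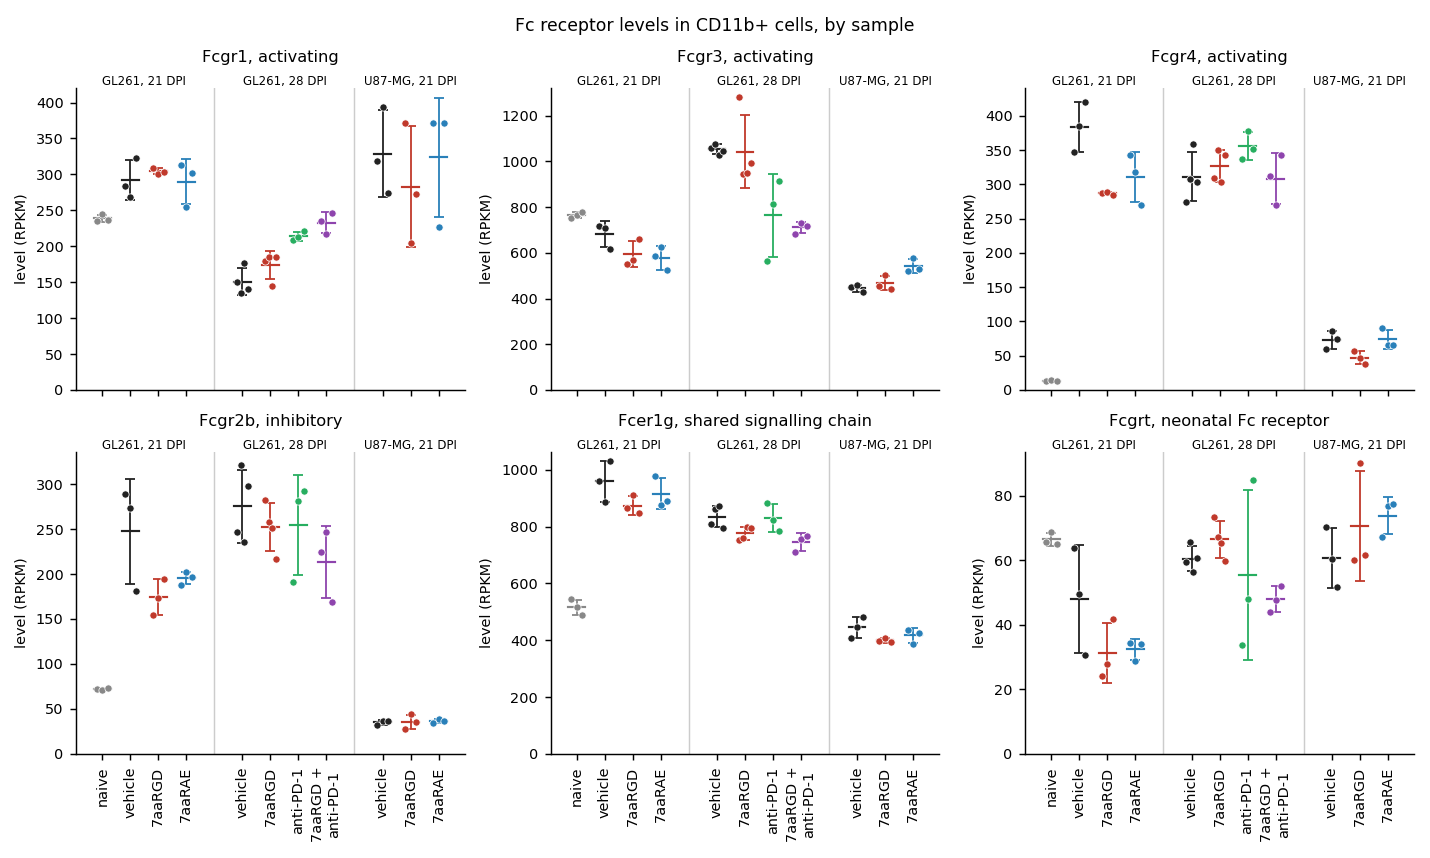
Level of each of the 6 genes (RPKM, linear axis from 0) in every sample of the 11 groups, as points, with the group mean as a horizontal bar and the SD as the error bar. Fcgr4 rises from 12.8 to 14.8 RPKM in naive samples to 347 to 420 RPKM in vehicle-treated GL261 tumors, and at 28 DPI the Fcgr1 points with anti-PD-1 sit above, and the Fcgr3 points below, all points without it.

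The receptors of activating and inhibitory type were compared within each sample as log2 of the summed RPKM of Fcgr1, Fcgr3 and Fcgr4 over that of Fcgr2b. No test was made on this sum of members. It was 3.80, 3.85 and 3.81 in the naive samples and 2.22, 2.32 and 2.91 in the vehicle-treated tumors, so the activating sum was 14.1 ± 0.23 times Fcgr2b in naive cells and 5.73 ± 1.56 times Fcgr2b in the tumors (SD, n = 3 in each). The difference between the groups was -1.33 on the log2 scale, and the lowest naive sample was above the highest tumor sample. Vehicle sample 3 had the highest ratio of the tumors, and without it the difference was -1.55.

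The single ratios did not move together. Fcgr1 over Fcgr2b was 1.69 to 1.78 on the log2 scale in naive cells and -0.03 to 0.84 in the tumors, and Fcgr3 over Fcgr2b was 3.39 to 3.43 against 1.31 to 1.77. Fcgr4 over Fcgr2b moved the other way, from -2.49 to -2.27 in naive cells to 0.26 to 1.22 in the tumors. With each of the 3 ratios given equal weight, in place of the sum, the tumor differed from naive brain by -0.11. The spread of this equal-weight value within groups was not computed. Fcgr3 made up 69.9 to 70.6% of the summed RPKM of the 4 IgG receptors in naive cells and 40.0 to 43.8% in the tumors.

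**Figure D2:**
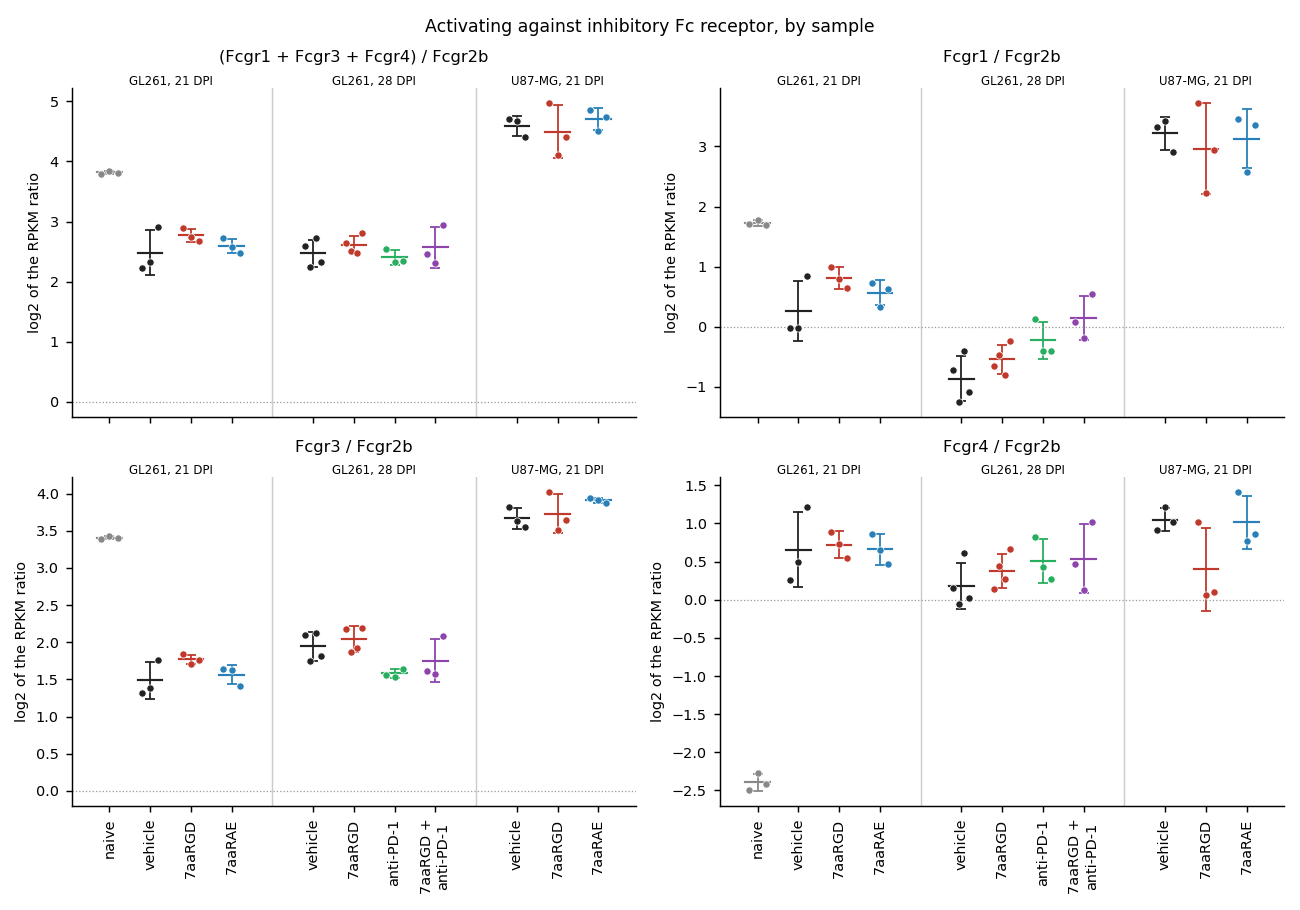
Log2 of the RPKM ratio of the 3 activating receptors together and of each alone to the inhibitory Fcgr2b, for every sample (points), with group means (bars) and SD (error bars) and a dotted line where both are equal. The summed ratio lies at 3.80 to 3.85 in naive samples and at 2.22 to 2.91 in vehicle-treated GL261 tumors, and it overlaps between samples with and without anti-PD-1 at 28 DPI.

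**Figure D3:**
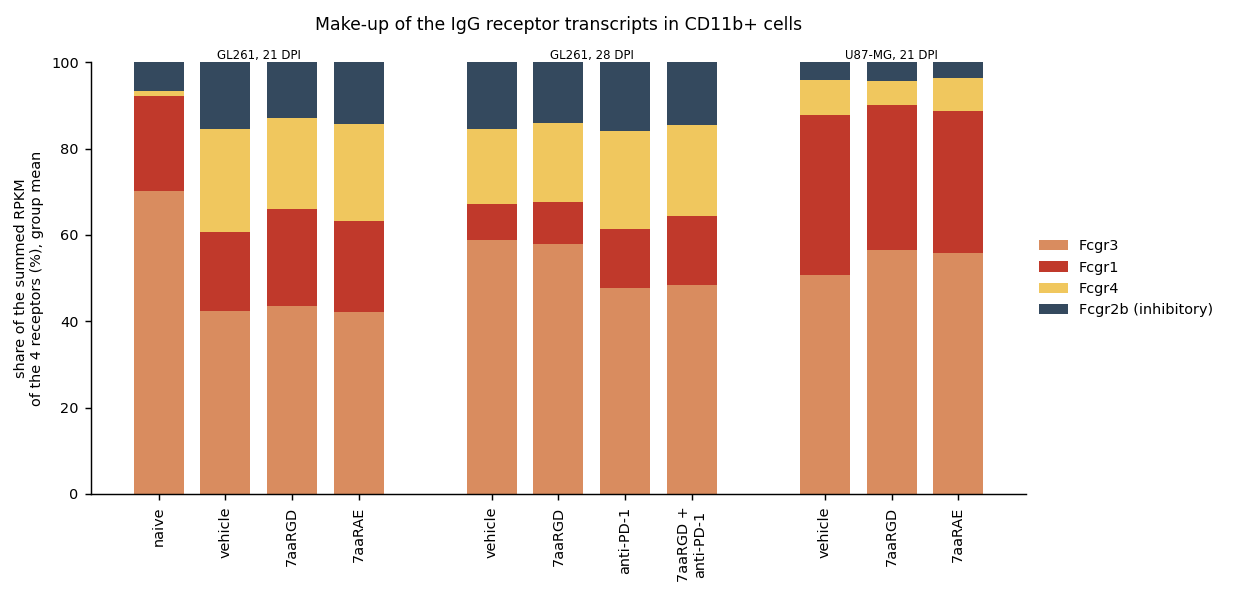
Share (%) of Fcgr3, Fcgr1, Fcgr4 and Fcgr2b in the summed RPKM of the 4 IgG receptors, as the mean of each group. Fcgr4 takes 1.26% of the sum in naive brain and 24.0% in vehicle-treated GL261 tumors at 21 DPI, and Fcgr2b takes 3.99% in vehicle-treated U87-MG tumors.

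The make-up of the sorted cells differed along with these levels. The 8 homeostatic microglia markers summed to 14615 to 15111 RPKM in the naive samples and to 1303 to 1865 RPKM in the vehicle-treated tumors, and all 8 were called lower. The 8 markers of infiltrating monocytes and macrophages summed to 23.3 to 26.3 RPKM in the naive samples and to 1026 to 1571 RPKM in the tumors, and all 8 were called higher. The 7 neutrophil markers summed to 369 to 440 RPKM in the naive samples and to 127 to 255 RPKM in the tumors, where 3 were called lower and 1 higher. The B cell and plasma cell markers summed to 201 to 233 RPKM and to 64.0 to 75.8 RPKM, and the 1 of them tested, Cd79b, was called lower. Of 6 border-associated macrophage markers 3 were called lower and 1, F13a1, higher. F13a1 is also among the 8 markers of infiltrating monocytes and macrophages. Of 3 dendritic cell markers tested 2, Flt3 and Itgae, were called higher. In these bulk samples, a change in the share of a cell type and a change of RNA per cell cannot be told apart, and the part of either in the receptor levels was not tested.

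Around the receptors, the other genes of the pathway were counted from lists. Of the list of genes that respond to interferon-gamma, 10 of 11 were measured, 9 rose and 1 fell, with a median log2 fold change of 3.90 against a median of -0.14 for all genes. Among those that rose were Cxcl9, a T cell chemoattractant (183-fold), and Ciita, the master regulator of MHC class II genes (19.4-fold). Of 10 measured receptors and adaptors of the FcR gamma and DAP12 chains, 8 rose and 1 fell, with a median of 3.08, and the rises included Clec4e, the gamma-chain-coupled receptor Mincle (13.2-fold). Pirb, which stood in the same list but is an inhibitory receptor for MHC class I with motifs of its own, is left out of this count and rose 14.3-fold. The genes of the signal below the receptors did not share a direction. On the activating side 10 rose and 7 fell of 18, with a median of 0.17, and the Src family kinase Fgr had the smallest adjusted p among all genes of the pathway lists (19.3-fold higher). On the inhibitory side 5 rose and 5 fell of 10, with a median of 0.05. Of 5 measured genes among other Fc receptors and antibody-binding proteins, 3 rose and 2 fell. In that list Fcrls, a microglial receptor of the Fc receptor-like family that was picked after its values were seen, fell from 1565 to 1653 RPKM in naive samples to 48.4 to 106 RPKM in the tumors.

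The effect of the integrin-blocking peptide was then examined in the GL261 tumors at 21 DPI. Neither 7aaRGD nor 7aaRAE changed a member past the threshold. Against vehicle, 7aaRGD called 0.148% of the 9436 genes tested, 7aaRAE called 0%, and 7aaRGD against 7aaRAE called 0% (limma), while the unadjusted p was under 0.05 for 1278, 600 and 520 genes.

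Under 7aaRGD, Fcgr4 was at 287, 289 and 284 RPKM, below all vehicle samples, and under 7aaRAE it was at 343, 318.5 and 270 RPKM, also below all of them. Of all genes tested, 17.6% did not overlap between 7aaRGD and vehicle and 12.6% between 7aaRAE and vehicle, so that 1 of 6 members in each is near the background. The log2 fold change was -0.42 for 7aaRGD (95% interval -0.64 to -0.19, adjusted p = 0.1633, limma) and -0.31 for 7aaRAE (95% interval -0.53 to -0.09, adjusted p = 0.7177, limma). The peptides themselves differed by -0.11 in Fcgr4, with an interval of -0.33 to 0.11, so the direction did not separate the peptide with the integrin-binding motif from the one without it.

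Fcgr2b was at 155, 174 and 195 RPKM under 7aaRGD and at 188, 202 and 196 RPKM under 7aaRAE. Both ranges overlapped vehicle through vehicle sample 3, which stood at 181 RPKM, and the log2 fold changes were -0.48 and -0.31 (adjusted p = 0.2685 and 0.7177, limma). Without vehicle sample 3, Fcgr2b was called lower under 7aaRGD (log2 fold change -0.69, adjusted p = 0.0220, limma), so this 1 pool decided the call. Leaving it out also raised the number of genes called over all genes tested from 14 to 120. The same pool had the lowest Fcgrt of the vehicle group.

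Fcgr3 was at 553, 570 and 659 RPKM under 7aaRGD and at 587, 626 and 523 RPKM under 7aaRAE, partly below the vehicle samples (adjusted p = 0.4261 and 0.7177, limma). Fcgr1 stayed at 254 to 313 RPKM under either peptide, Fcer1g at 847 to 978 RPKM and Fcgrt at 24.1 to 41.9 RPKM, and all 3 ranges overlapped those of vehicle. The summed activating receptors over Fcgr2b were 2.68 to 2.89 on the log2 scale under 7aaRGD and 2.48 to 2.72 under 7aaRAE, within the 2.22 to 2.91 of the vehicle samples.

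The combination with anti-PD-1 was examined at 28 DPI. With the antibody the activating receptors moved in opposite directions. Fcgr1 was 1.38-fold higher and Fcgr3 was 0.70 times as high, whereas Fcgr4 and the inhibitory Fcgr2b were not called. Of 9732 genes tested over both antibody groups against both groups without it, 46.6% were called, and 2 of the 6 members were. The summed activating transcript over Fcgr2b stayed within the spread of the samples. With equal weight for each activating receptor, as given further on, the mean ratio was higher with the antibody, but its spread within groups was not computed. The ratio of each single receptor to Fcgr2b overlapped between samples with and without the antibody.

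Fcgr1 was at 151, 135, 177 and 140 RPKM with vehicle, at 179.5, 185.5, 145 and 185 RPKM with 7aaRGD, at 209, 212 and 221 RPKM with anti-PD-1, and at 236, 217 and 246 RPKM with 7aaRGD and anti-PD-1. Every sample with anti-PD-1 was above every sample without it, and 13.8% of all genes tested were likewise apart, in either direction. The log2 fold change was 0.47 ± 0.07 over both antibody groups (adjusted p = 0.0001879), 0.51 ± 0.10 for anti-PD-1 against vehicle (adjusted p = 0.003717, with 23.1% of genes called) and 0.43 ± 0.10 for the addition of anti-PD-1 to 7aaRGD (adjusted p = 0.006063, with 36.6% of genes called), all by limma. Fcgr1 stayed called under all 25 alternatives of the first contrast, with a highest adjusted p of 0.0022 (limma).

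Fcgr3 was at 1060, 1078, 1029 and 1047 RPKM with vehicle, at 1280, 944, 950 and 994 RPKM with 7aaRGD, at 564, 814 and 913 RPKM with anti-PD-1, and at 684, 732 and 717 RPKM with both. Here every sample with anti-PD-1 was below every sample without it. Between single groups, 32.5% of genes did not overlap for anti-PD-1 against vehicle and 40.4% for both agents against 7aaRGD. The log2 fold change was -0.52 ± 0.10 over both antibody groups (adjusted p = 0.0008937), -0.49 ± 0.14 for anti-PD-1 against vehicle (adjusted p = 0.02254) and -0.54 ± 0.14 for the addition of anti-PD-1 to 7aaRGD (adjusted p = 0.009159), all by limma. The contrast over both antibody groups stayed called under all 25 alternatives (highest adjusted p = 0.0061, limma). That of anti-PD-1 alone was less firm. Its anti-PD-1 sample 1 was far below the other two, and without it the log2 fold change was -0.29 (adjusted p = 0.0880, limma). Without vehicle sample 2 the adjusted p was 0.0507, and with replicate numbers as a block it was 0.0564 (limma).

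Fcgr4 was at 274 to 359 RPKM with vehicle, 303 to 350 RPKM with 7aaRGD, 337.5 to 379 RPKM with anti-PD-1 and 270 to 343 RPKM with both. The 4 ranges overlapped, and the difference with the antibody was 0.06 on the log2 scale (95% interval -0.10 to 0.21, adjusted p = 0.5406, limma). Fcgr2b was at 236 to 321 RPKM with vehicle, 217 to 282 RPKM with 7aaRGD, 191 to 292 RPKM with anti-PD-1 and 169 to 247 RPKM with both. The lowest values of this receptor were in antibody samples, but the ranges overlapped (log2 fold change -0.19, 95% interval -0.44 to 0.07, adjusted p = 0.2077, limma).

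Fcer1g, the partner that all 3 activating receptors need for signalling, was at 796 to 872 RPKM with vehicle, 753 to 798 RPKM with 7aaRGD, 785 to 883 RPKM with anti-PD-1 and 710 to 769 RPKM with both. Over both antibody groups it differed by -0.03 on the log2 scale (95% interval -0.13 to 0.06, adjusted p = 0.5387, limma), and by 0.00 with TMM factors. It was called lower with 7aaRGD and anti-PD-1 against vehicle (log2 fold change -0.16, adjusted p = 0.0466, limma; 3 of 6 members called against 43.3% of genes). This call was lost with TMM factors (log2 fold change -0.11, adjusted p = 0.2355, limma) and when 11 of the 14 samples were left out in turn.

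Fcgrt was at 56.3 to 65.6 RPKM with vehicle, 59.8 to 73.5 RPKM with 7aaRGD and 44.0 to 52.0 RPKM with both agents, while the anti-PD-1 samples stood at 33.7, 47.9 and 84.7 RPKM. All 3 samples with both agents were below every sample without the antibody. Between single groups, 48.8% of genes did not overlap for both agents against vehicle and 40.4% for both agents against 7aaRGD. No such share was computed against these groups together. Over both antibody groups the log2 fold change was -0.34 and was not called (adjusted p = 0.0724, limma), and without anti-PD-1 sample 3, the one at 84.7 RPKM, it was -0.52 and was called (adjusted p = 0.0004, limma). Without that sample Fcgrt was also called lower for anti-PD-1 against vehicle, for both agents against vehicle and for both agents against 7aaRGD (adjusted p = 0.0085, 0.0298 and 0.0067, limma).

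**Figure D4:**
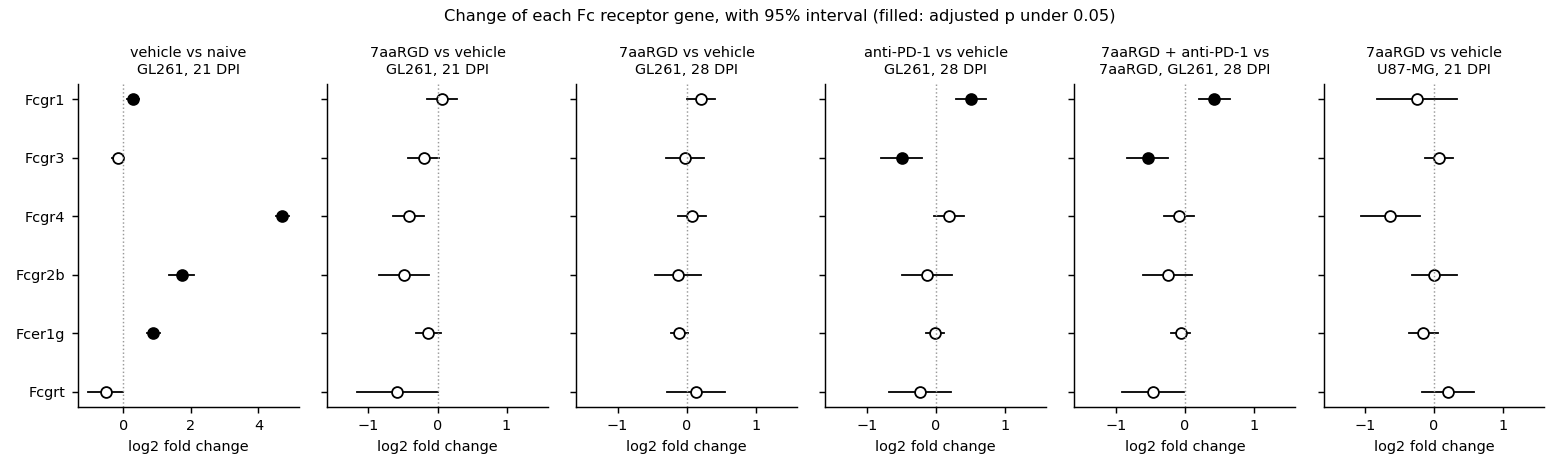
Log2 fold change of each of the 6 genes in 6 of the comparisons, on log2(RPKM + 1), with 95% intervals as lines and filled points where the adjusted p was under 0.05. The first panel has a wider axis than the others. In the panels with anti-PD-1, Fcgr1 lies to the right of 0 (0.51 and 0.43) and Fcgr3 to the left (-0.49 and -0.54), and no point is filled in the panels of 7aaRGD against vehicle.

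The summed activating receptors over Fcgr2b were 2.24 to 2.73 on the log2 scale with vehicle, 2.47 to 2.81 with 7aaRGD, 2.32 to 2.54 with anti-PD-1 and 2.30 to 2.95 with both. The difference with the antibody was -0.06, less than the SD of 0.22 within groups. Beneath this similar sum, Fcgr1 over Fcgr2b was -1.25 to -0.23 without the antibody and -0.40 to 0.54 with it, and Fcgr3 over Fcgr2b was 1.75 to 2.20 without it and 1.54 to 2.08 with it. With equal weight for the 3 receptors the antibody groups differed by 0.19 in the other direction, a value whose spread within groups was not computed. Among the 4 IgG receptors, Fcgr1 took 8.43 ± 1.10% of the summed RPKM with vehicle (SD, n = 4) and 13.7 ± 2.05% with anti-PD-1 (SD, n = 3), and Fcgr3 took 58.8 ± 1.70% and 47.7 ± 4.04%.

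Within the same experiment 7aaRGD on its own called none of the members against vehicle, where 0.647% of genes were called. Fcgr1 came nearest, at 0.20 on the log2 scale (95% interval -0.00 to 0.41, adjusted p = 0.3428, limma). Added to anti-PD-1, 7aaRGD also called none, with 0.0411% of genes called, and the difference was 0.12 for Fcgr1 (95% interval -0.12 to 0.36) and -0.21 for Fcgr4 (95% interval -0.44 to 0.02). The interaction of 7aaRGD and anti-PD-1 called 0% of genes (794 had an unadjusted p under 0.05, limma), and for the members it lay between -0.29 for Fcgr4 and -0.05 for Fcgr3, with intervals that all included 0. In the order of the 4 group means, the step between 7aaRGD and anti-PD-1 separated the samples for Fcgr1 and Fcgr3, and all other neighbours overlapped.

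The pathway lists were read beside these changes. Of the interferon-gamma list all 10 measured genes rose with anti-PD-1, with a median log2 fold change of 1.28 against -0.04 for all genes. They included Nos2, which makes nitric oxide (8.06-fold), and the guanylate-binding proteins Gbp5 (2.81-fold) and Gbp2 (2.62-fold). Of 5 measured other Fc receptors and antibody-binding genes 3 rose and 1 fell, and the cytosolic antibody receptor Trim21 rose 1.65-fold (adjusted p = 1.172e-05, limma).

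Below the receptors, 7 of 18 genes of the activating signal rose and 3 fell (median 0.12), and 3 of 10 genes of the inhibitory signal rose and 3 fell (median -0.01). Neither side shared a direction, since the phosphatases Ptpn6 and Inppl1 were among the inhibitory genes that rose and Inpp5d among those that fell, and Syk was among the activating genes that rose and Pik3r1, Gab2 and Rac2 were those that fell. These genes were picked after their values were seen. Of 10 measured receptors and adaptors of the FcR gamma and DAP12 chains, with Pirb left out, 4 rose and 1 fell (median 0.15), and Pirb itself rose 1.29-fold.

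**Figure D5:**
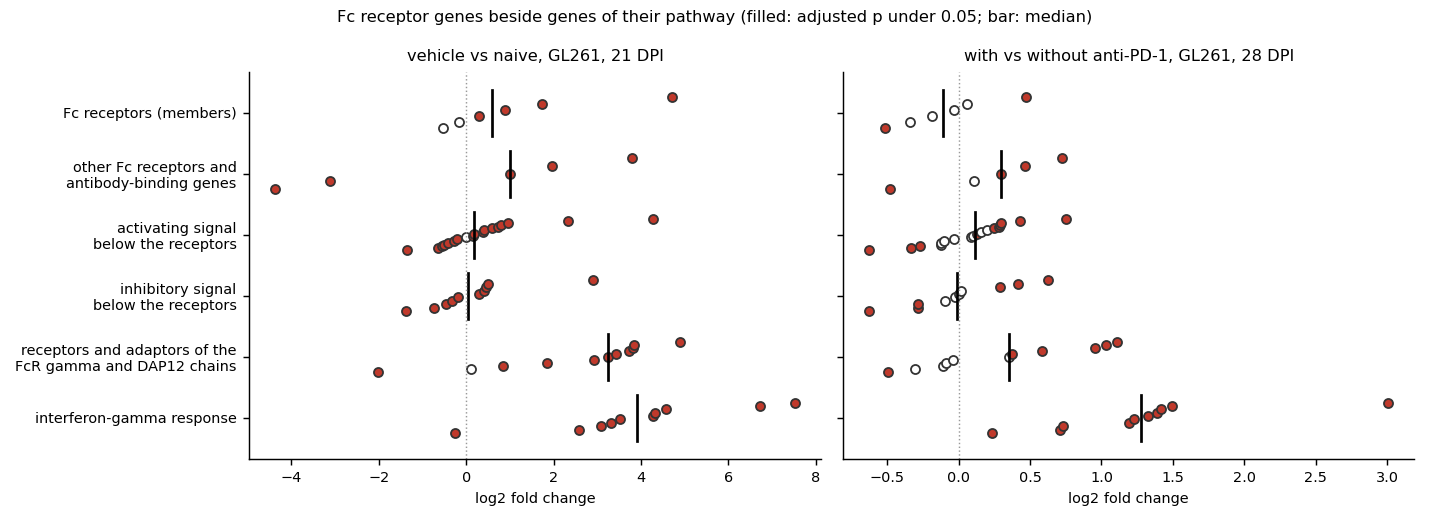
Log2 fold change of the 6 Fc receptor genes and of the measured genes of 5 pathway lists, 1 point a gene (Pirb stands with the FcR gamma and DAP12 chains), for vehicle-treated GL261 tumors against naive brain and for 28 DPI samples with against without anti-PD-1. Filled points passed an adjusted p under 0.05 and the vertical bars are medians, which for the interferon-gamma list are 3.90 and 1.28.

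Marker genes of other cells moved with the antibody as well. The 8 markers of infiltrating monocytes and macrophages summed to 93.9 to 156 RPKM with vehicle, 153 to 212 RPKM with 7aaRGD, 309 to 373 RPKM with anti-PD-1 and 384 to 487 RPKM with both, and 6 of the 8 were called higher. The 8 homeostatic microglia markers overlapped between the groups in their sum, from 1515 to 3042 RPKM without the antibody and from 1710 to 2511 RPKM with it, and 5 were called higher. NK cells carry Fcgr3 without Fcgr2b. The 7 NK cell markers summed to 1.24 to 8.07 RPKM without the antibody and to 1.54 to 61.3 RPKM with it, and 3 of the 4 measured in the test were called higher, while Fcgr3 was lower in the same samples. The B cell and plasma cell markers summed to 20.8 to 45.8 RPKM without the antibody and to 44.2 to 101 RPKM with it, in which Ighm stood at 14.9 to 36.0 RPKM and at 33.4 to 84.1 RPKM, and Cd79b, the 1 tested, was not called. The dendritic cell markers summed to 1.2 to 3.32 RPKM without the antibody and to 3.02 to 14.9 RPKM with it, and the 1 tested, Cd209a, was called higher. Of 4 border-associated macrophage markers tested Mrc1 was called lower, and of 6 neutrophil markers 1 was called higher and 1 lower. The part of these cells in the receptor levels was not tested.

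The genes whose log2 levels were most like those of a member over the 14 samples at 28 DPI are given as a description, and the samples share 4 groups. For Fcgr1 these were Tmpo (r = 0.97), Atf6b (r = 0.97) and Herc6 (r = 0.96) of 9731 genes, and for Fcgr3 they were Trpv4 (r = 0.96), Mxd4 (r = 0.96) and Gpx3 (r = 0.95). The nearest genes to Fcgr2b were Bcar3 (r = 0.89), Cd84 (r = 0.89) and Mr1 (r = 0.88), and those to Fcgr4 were Ring1 (r = 0.83), Tut7 (r = 0.80) and Secisbp2 (r = 0.77). Fcer1g was nearest to Fam104a (r = 0.86), Mettl5 (r = 0.86) and Dpep2 (r = 0.84), and Fcgrt to Mertk (r = 0.90), Osbpl11 (r = 0.89) and Stau1 (r = 0.89). Among the members, Fcgr1 and Fcgr3 had r = -0.69, and Fcgr3 and Fcgrt had r = 0.81.

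In the U87-MG xenografts, the receptors were examined in mice that lack T cells. The inhibitory receptor was low and neither peptide called a member. For 7aaRGD against vehicle 0% of the 9659 genes were called, for 7aaRAE against vehicle 0.0104%, and for 7aaRGD against 7aaRAE 0% (limma), while the unadjusted p was under 0.05 for 364, 746 and 326 genes.

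Fcgr2b was at 31.7, 36.9 and 36.6 RPKM with vehicle, 28.0, 44.0 and 35.3 RPKM with 7aaRGD, and 33.8, 38.2 and 36.1 RPKM with 7aaRAE. The groups lay over each other, and 7aaRGD differed from vehicle by 0.01 on the log2 scale (95% interval -0.32 to 0.34). Fcgr1 was at 274 to 394 RPKM with vehicle, 204.5 to 372 RPKM with 7aaRGD and 227 to 372 RPKM with 7aaRAE. The summed activating receptors over Fcgr2b were therefore high, at 4.41 to 4.70 on the log2 scale with vehicle, 4.10 to 4.98 with 7aaRGD and 4.51 to 4.86 with 7aaRAE. Side by side, with no test across the tables, these ranges lie above those of all groups of GL261 tumors and of naive C57BL/6 brain.

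Fcgr4 was at 59.7, 85.8 and 74.4 RPKM with vehicle, 56.8, 46.0 and 37.9 RPKM with 7aaRGD, and 90.2, 65.3 and 65.9 RPKM with 7aaRAE. All 3 samples of 7aaRGD were below the samples of both other groups, where 10.8% of genes did not overlap with vehicle and 6.46% with 7aaRAE. The log2 fold change was -0.64 against vehicle (95% interval -1.06 to -0.21, adjusted p = 0.9411, limma) and -0.64 against 7aaRAE (95% interval -1.07 to -0.22, adjusted p = 0.9999, limma), so neither was called. Fcgr3 was at 427.5 to 459 RPKM with vehicle, 443 to 503.5 RPKM with 7aaRGD and 520 to 576 RPKM with 7aaRAE. The samples of 7aaRAE were above all others, where 16.5% of genes did not overlap between 7aaRAE and vehicle, without a call (log2 fold change 0.28 against vehicle, adjusted p = 0.4963, limma).

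Fcer1g was at 408 to 483 RPKM with vehicle, 393 to 408 RPKM with 7aaRGD and 387 to 436 RPKM with 7aaRAE, so that the 7aaRGD samples ended where those of vehicle began (log2 fold change -0.15, 95% interval -0.37 to 0.06). Fcgrt was at 51.6 to 90.2 RPKM over all U87-MG samples, with overlapping groups. The homeostatic microglia markers summed to 6300 to 10646 RPKM in these samples and the infiltrating monocyte and macrophage markers to 51.5 to 125 RPKM, against 1303 to 2495 RPKM and 1026 to 1642 RPKM in the GL261 tumors at 21 DPI. The interferon-gamma list summed to 98.8 to 157 RPKM, against 982 to 1685 RPKM in the GL261 tumors at 21 DPI. The host strain, the T cells of the host and the tumor line all differ between the models and cannot be told apart.

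Fcgr3 and Fcgr2b share stretches of identical sequence, which can affect how their reads were counted. Of the distinct 50-base stretches of the annotated Fcgr3 transcripts, 9.58% were also found in Fcgr2b transcripts, and none was found in those of Fcgr1 or Fcgr4. The share was 13.4% for stretches of 31 bases and 5.42% for stretches of 75 bases. According to the study's methods only reads above a minimum mapping quality were counted, so reads that match both genes equally well would have been dropped. The read length is not given in the sources used here, and the size of the effect on the levels of Fcgr3 and Fcgr2b is unknown.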

How the data were processed

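CD11b+ cells were sorted and sequenced as stranded mRNA libraries. According to the submitters' processing notes and the study's methods, the authors used Trimmomatic for trimming, STAR for alignment to mm10 and HTSeq 0.11.1 for gene counting. The deposited tables held RPKM values with a constant of 2 added, and how these were made from the counts is not given in the sources used here. The constant was removed. Some values were then below 0 (lowest -0.42 RPKM), and the differences between replicates spanned 1 dimension fewer than their number allows in the GL261 tables (7 of 8 at 21 DPI and 9 of 10 at 28 DPI), so the values had been adjusted after normalisation and p-values carry that limit. The members and gene lists were chosen with earlier results of these data known.

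Rows were matched by name to GENCODE M21 (53807 of 54513). Protein-coding genes whose mean over the samples of a fit reached 1 RPKM were tested with limma 3.58.1 (R 4.3.3) on log2(RPKM + 1), with a variance trend, separately in each table; fold changes of low genes are understated on this scale. Peptide and antibody contrasts used all tumor groups of a table, and the naive contrast used its 2 groups. A further anti-PD-1 sample, a further sample with both agents and naive nude mice were not analysed here. U87-MG columns carry no distinct replicate names. At 21 DPI pools and at 28 DPI mice were the replicates. Named were the 6 members, up to 5 pathway genes a comparison with the smallest adjusted p, and the 3 genes most correlated with each member; some genes that this rule would name are not reported here. Few same-numbered samples deviated together in these values (1 of 9 pairs with r over 0.1 at 21 DPI and 3 of 19 at 28 DPI). Their r ran from -0.775 to 0.123 at 21 DPI and from -0.499 to 0.366 at 28 DPI. Because the values had been adjusted, this check cannot show whether the samples were paired. The numbers were not used as pairs in the main fit, and a fit with them as a block was an alternative. The alternatives were other pseudocounts (0.1 and 5), filters, scalings, gene sets, sample sets, variance models and single samples left out. The fit was tested on simulated data. The columns left unused numbered 0.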

Additional observations from a re-analysis of the deposited data

Results flagged for a closer look

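At 28 DPI, 2 samples of the 7aaRGD group stood apart from the other 3 of their group in a member. The lowest Fcgr1 sample, at 145 RPKM, was separated from its nearest neighbour by 0.85 of the group's whole range. The highest Fcgr3 sample, at 1280 RPKM, was separated from its nearest neighbour by the same share, 0.85. These were samples 3 and 1 of the group. Chance flags about 1 in 20 tests, and 14 tests were made, so that a flag by chance among them would not be rare. They covered the members and the summed ratio in the vehicle and 7aaRGD groups at 28 DPI, and were not independent. Groups of 3 samples were too small to be tested.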

How the results depend on the processing

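Of 1938 values of single members under the alternatives, 1857 kept their direction and their side of the threshold, 21 lost a call, 13 gained one, 0 called values reversed, and 47 uncalled values changed sign. With the geometric mean of the 3 ratios in place of the summed ratio, the activating to inhibitory difference was -0.11 for vehicle against naive, 0.20 for anti-PD-1 against vehicle, 0.39 for both agents against vehicle and 0.19 for all samples with against without anti-PD-1 (log2). The SD within groups was computed for the summed ratio only, so whether these values exceed their own spread was not tested. For anti-PD-1 against vehicle, 1 member was called with no filter on low values and 1 with the replicate block, in place of 2, and Fcgr3 was the call lost (adjusted p = 0.0521 and 0.0564, limma). Leaving out single samples gave 1 to 3 members called there, and 0 to 1 for 7aaRGD against vehicle at 21 DPI. For both agents against vehicle, Fcgr2b was called without anti-PD-1 sample 1 (adjusted p = 0.0467, limma). Without the same sample Fcgrt was called lower for both agents against 7aaRGD (adjusted p = 0.0271, limma), and with only the groups compared in the fit it was called lower against 7aaRGD and against vehicle (adjusted p = 0.0073 and 0.0103, limma). With the replicate block Fcgrt was called lower in vehicle-treated tumors against naive brain (adjusted p = 0.0434, limma), and Fcer1g was no longer called for both agents against vehicle (adjusted p = 0.0901, limma). It changed no other call of a member. No paired analysis was possible for U87-MG because its columns carry no replicate numbers.

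Counts over all genes also moved with the settings. For 7aaRGD against vehicle they were 14 at 21 DPI (0 to 74 under other settings, 0 to 120 with single samples left out, and 0 with the replicate block) and 63 at 28 DPI (0 to 93, 0 to 67, and 0 with the block). For both agents against anti-PD-1 they were 4 (0 to 20, and 0 to 26), for 7aaRAE against vehicle in U87-MG 1 (0 to 32, and 1 to 22), and for 7aaRGD against 7aaRAE at 21 DPI 0 (0 to 7, and 0 to 2). Leaving out single samples gave 1357 to 2410 for anti-PD-1 against vehicle, in place of 2245. For vehicle against naive the count of 8056 fell to 5286 with a mean of at least 5 RPKM, where fewer genes were tested. The causes of the other changes were not tested. Depth is unknown, so no counting error could be given.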
